A study of Mus musculus with 6 samples.

Results

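The 32 genes described here encode subunits and inhibitors of the transcription factor NF-kB, together with cytokines, chemokines, adhesion molecules and enzymes. NF-kB is known to induce many of the latter, though not all. The 32 genes were taken by symbol from a table of 45777 mouse genes, and all 32 were found. Total RNA of the small intestine had been sequenced in 6 libraries. Of these, 3 are titled DIO-zeta and labelled as PKCzeta overexpression (PKCzeta, the product of Prkcz, is an atypical protein kinase C), and 3 are titled DIO-GFP and labelled as control, GFP being green fluorescent protein. All 6 titles carry the letters DIO, a prefix left unexplained in the sources used here, where no strain, age, diet, vector or promoter is stated either. The first number in the titles is 2 or 4 in the zeta libraries and 1 or 3 in the GFP libraries, so whatever it marks cannot be told apart from the label. Values for the zeta libraries are given in the order 2-1, 4-1 and 4-2, and those for the GFP libraries in the order 1-1, 1-4 and 3-1.

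NF-kB is a family of dimers that wait in the cytoplasm, bound by inhibitors of the IkB type. Signals from receptors for interleukin-1, tumour necrosis factor and microbial products lead to destruction of the inhibitor, after which the dimer enters the nucleus and switches on cytokines, chemokines and its own inhibitors. In the gut the epithelium, resident macrophages and stroma all use this pathway, and atypical PKC has been placed within it through its scaffold p62 and the RelA subunit. Some of the chemokines studied here, such as those encoded by Ccl25 and Ccl28, are made by resting epithelium, whereas others appear mainly with inflammation.

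The read count of the targeted gene did not go with the label. Prkcz (Entrez 18762, chromosome 4 from 155260118 to 155361428) stood at 82.5, 100.1 and 57.03 CPM in the zeta libraries, against 70.5, 98.6 and 96.9 CPM in the GFP libraries, a log2 fold change of -0.15 (95% interval -0.69 to 0.39, SE 0.24), with an edgeR adjusted p of 0.950. Prkci, the other atypical PKC gene, had -0.012. The sources used here do not say how PKCzeta was overexpressed or whether a delivered transcript would be counted in the Prkcz row, so these counts do not settle what the label means. Every direction below is therefore a direction between labels. Total counts ran from 77573133 to 93742978, and CPM is the read count scaled to a common library size by TMM. Intestinal epithelium was evident, with all 10 epithelial markers detected and Vil1, the villin gene of the brush border, at 2227, 2511 and 1973 CPM with the zeta label and 2776, 3797 and 2534 CPM with the GFP label. The 6 pancreatic acinar genes summed to 3.69 to 4.92 CPM, nearly all of it Cela1, with Pnlip and Amy2a5 at 0 reads in every library. Of 18456 tested genes, 0 (0%) were called by edgeR's quasi-likelihood test at an adjusted p of 0.05, 1012 (5.48%) had an unadjusted p under 0.05, and DESeq2 called 87 of 17832 (0.488%).

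Short stretches of promoter show the DNA letters through which NF-kB is known to act. RefSeq promoters (build GRCm38.p6) were matched for 21 of the 32 genes, and the 250 bases before each start were searched on both strands for the NF-kB consensus. It was present in 7 of these 21 genes (33.3%), against 2225 of 27025 genes with a RefSeq promoter (8.23%). The 7 are an inhibitor, a feedback enzyme, a subunit, a cytokine and 3 chemokines, and a window of each is shown with the match in capitals, since these genes return in the results below.
Nfkbia (chr12:55492657-55492686, - strand): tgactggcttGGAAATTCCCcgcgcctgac
Tnfaip3 (chr10:19015411-19015440, - strand): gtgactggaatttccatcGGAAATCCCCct
Nfkb2 (chr19:46304688-46304717, + strand): ggatcgtcacGGGAATTCCCcccctcgggg
Il6 (chr5:30013060-30013089, + strand): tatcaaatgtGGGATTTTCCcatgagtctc
Cxcl1 (chr5:90891164-90891193, + strand): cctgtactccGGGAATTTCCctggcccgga
Cxcl2 (chr5:90903792-90903821, + strand): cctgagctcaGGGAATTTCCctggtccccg
Ccl20 (chr1:83116676-83116705, + strand): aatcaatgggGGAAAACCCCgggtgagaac
The capitals of Cxcl1 and Cxcl2 are the same letters, and the genes are neighbours on chromosome 5. These matches end 62 and 88 bases before the start, that of Il6 ends 35 bases before it and that of Nfkbia 20. In Nfkbia, Tnfaip3 and Ccl20 the match shown lies on the strand opposite to the gene. In Cxcl1, Cxcl2 and Nfkb2 the match shown is overlapped by matching letters on the opposite strand. Tnfaip3 and Nfkb2 hold further matches that are not shown. That of Tnfaip3 lies 125 to 116 bases before the start and matches on both strands. A match describes the sequence alone, since binding was not measured here.

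Of the 32 genes, 30 had enough reads to be tested. The exceptions were a pair of cytokine genes linked to type 17 immunity. Il17a, the cytokine of Th17 and innate lymphoid cells, had 3, 14 and 5 reads in the zeta libraries, against 4, 0 and 2 reads in the GFP libraries. Il23a, which encodes the subunit that makes interleukin-23, had 3, 0 and 8 reads in the zeta libraries, against 0, 0 and 0 reads in the GFP libraries. A count of 3 corresponds to between 0.0287 and 0.0378 CPM in these libraries, and both genes were too low to test at this depth. Several of the tested genes were also scarce. Averaged over the 6 libraries, 8 of the 32 genes were below 1 TPM (the length-corrected level that the authors deposited), 9 were between 1 and 10 TPM, and 15 were at or above 10 TPM.

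On the TPM scale Ccl25 exceeded every other gene of the set. This chemokine, which draws gut-homing lymphocytes to the small intestine, was at 496 TPM (range 419 to 579) and made up 47.4% to 62.9% of the summed TPM of the 32 genes in a library. Next in mean level came Nfkbia at 90.4 TPM (range 62.3 to 134), Relb at 42.7 TPM (range 37.1 to 49.7) and Cxcl16 at 28.3 TPM (range 24.6 to 33.3). Nfkb1, with 25.2 TPM (range 15.4 to 41.5), and Il18, with 24.3 TPM (range 15.6 to 33.6), overlapped Cxcl16 in range. Rela, the subunit most often paired with p50, was lower, at 7.09 TPM (range 5.44 to 9.93). Among the cytokine genes of acute inflammation, Il1b at 6.56 TPM (range 2.68 to 14.6) overlapped Rela in range. The means of the others were lower, with Il6 at 3.63 TPM (range 0.494 to 8.59), Tnf at 0.738 TPM (range 0.364 to 1.27) and Il12b at 0.150 TPM (range 0.0321 to 0.263).

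**Figure D1:**
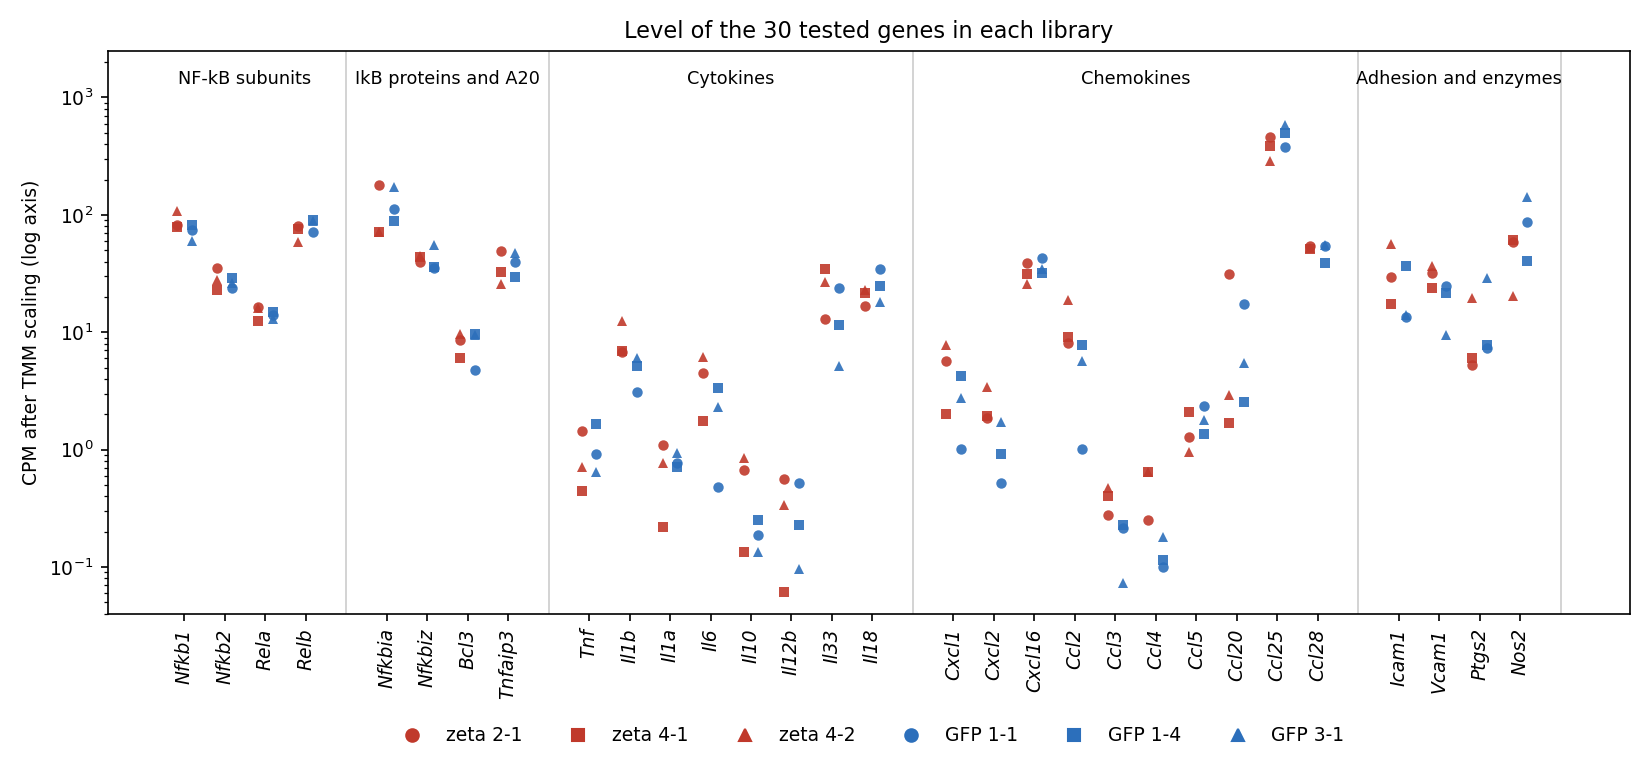
Level of the 30 tested genes in each library, in CPM after TMM scaling on a log axis, with genes grouped by role. Each point is a library, red for the zeta label (left of each gene) and blue for the GFP label, and Ccl25 stands highest while Ccl3, Ccl4, Il10 and Il12b lie below 1 CPM.

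No gene of the set passed the test between the labels. In edgeR 0 of the 30 tested genes passed an adjusted p of 0.05, and their adjusted p ran from 0.858 to 0.996. At an unadjusted p under 0.05 edgeR held 3 of the 30, all with higher values in the zeta libraries, where 2.41% of all tested genes were called in that direction and 3.07% in the other. These were Ccl4, Il1b and Cxcl2, and the other 27 had an unadjusted edgeR p between 0.0567 and 0.957. Ccl4 passed the filter on low counts only through the zeta libraries, where it was higher. DESeq2 passed 0 of the 30 to which it gave an adjusted p. At an unadjusted p under 0.05 it held 6 of the 32, against 1270 of all 27449 genes it fitted. Of these, Il1b, Cxcl2, Ccl2, Ccl4 and Vcam1 were higher in the zeta libraries and Nos2 was lower (log2 fold change -0.96). Limma voom passed 0 of the 30 and held 4 at that unadjusted p (Ccl2, Ccl3, Ccl4 and Vcam1), against 1530 of 18456 genes. Its unadjusted p was 0.0578 for Il1b and 0.0556 for Cxcl2. Limma on log2(TPM + 1) passed 0 and held 5, against 1053 of 18456. Values were above 0 for 19 of the 30 genes, or 63.3%, against 54.3% of all tested genes, and the median log2 fold change was 0.12 against 0.035. This lean did not hold throughout, since without zeta replicate 2-1 the count was 14 of 30 and the median -0.038, and limma voom gave 15 of 30 and 0.0040. Without zeta replicate 4-2 a single gene of the 30, Ccl4, had an unadjusted edgeR p under 0.05, against 588 of all 18936 tested genes. Without zeta replicate 2-1 there were 5 of 30, against 1364 of 18983. Without zeta replicate 4-1 there were also 5 of 30, against 1004 of 19021.

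**Figure D2:**
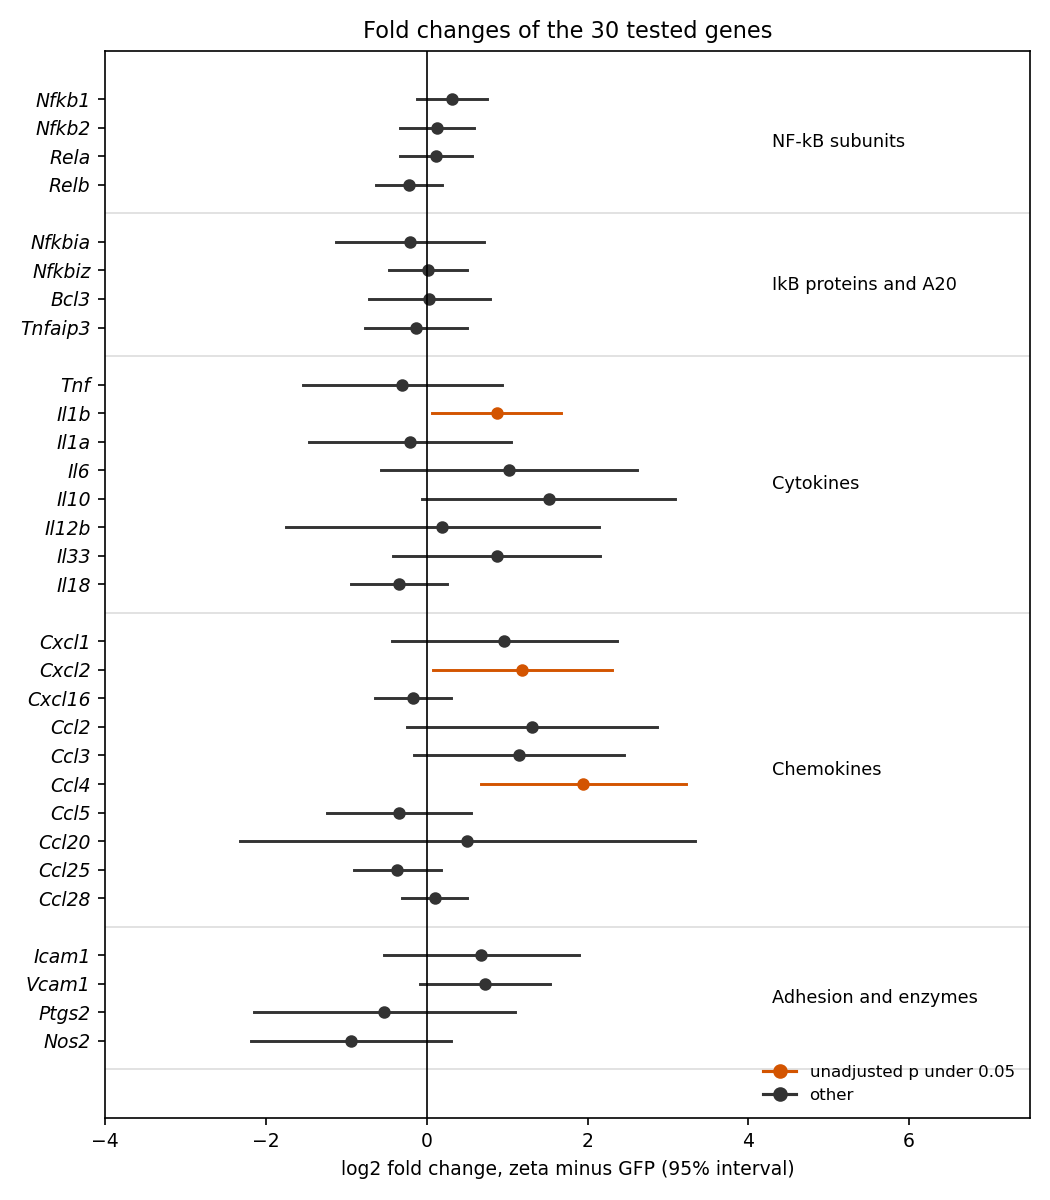
Log2 fold change of the 30 tested genes, zeta minus GFP, with 95% intervals from edgeR. Intervals of Il1b, Cxcl2 and Ccl4 (orange, unadjusted p under 0.05) lie above 0 and all others cross it, and those of the NF-kB subunits are narrow while that of Ccl20 runs from -2.33 to 3.34.

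For the DNA-binding subunits the highest library was between 1.32 and 1.81 times the lowest. Nfkb1 (Entrez 18033, chromosome 3 from 135584655 to 135691969), which encodes p105 and its product p50, stood at 82.1, 78.1 and 108 CPM in the zeta libraries, against 73.9, 81.4 and 59.7 CPM in the GFP libraries. Zeta replicate 4-2 was highest and GFP replicate 3-1 lowest, and the groups overlapped. The means were 89.4 ± 16.2 CPM in zeta libraries and 71.7 ± 10.9995 CPM in GFP libraries (SD, n = 3 each), for a log2 fold change of 0.32 (95% interval -0.12 to 0.75, SE 0.19). Rela (Entrez 19697, chromosome 19 from 5637442 to 5648134), the gene of p65, had 16.5, 12.5 and 16.2 CPM in the zeta libraries, against 13.9, 14.9 and 12.95 CPM in the GFP libraries. Its highest library was only 1.32 times its lowest, the smallest ratio among the 30 genes, and the log2 fold change was 0.11 (95% interval -0.33 to 0.56, SE 0.19). Nfkb2, the precursor of p52 in the alternative pathway, ranged over 23.1 to 34.99 CPM with the zeta label and 23.6 to 29.1 CPM with the GFP label, and its fold change was 0.13 (SE 0.20). Relb, the partner of p52, ranged over 59.2 to 80.1 CPM with the zeta label and 71.04 to 91.3 CPM with the GFP label, with -0.22 (SE 0.18) as its fold change. The span of Nfkb2 overlaps that of 4833438C02Rik and of Psd, which held 1702 and 3802 reads over the 6 libraries beside 14437 for Nfkb2, and the sources used here do not state whether the counting used the strand. None of the 4 subunits had non-overlapping groups, and the intervals leave room for a change of up to 0.75 (log2) in Nfkb1.

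The inhibitors that NF-kB induces to limit itself had their high and low libraries in both groups. Nfkbia (Entrez 18035, chromosome 12 from 55489409 to 55492647) encodes IkB-alpha, which is rebuilt after each activation. Its level was 178, 72.05 and 72.1 CPM in the zeta libraries, against 112, 88.1 and 172 CPM in the GFP libraries. A zeta library and a GFP library were close to each other at the top, and the other zeta libraries were at the bottom. The means were 107 ± 61.1 CPM in zeta libraries and 124 ± 43.1 CPM in GFP libraries (SD, n = 3 each), for a log2 fold change of -0.21 (95% interval -1.13 to 0.72, SE 0.40). Tnfaip3 (Entrez 21929, chromosome 10 from 19000910 to 19015410), the gene of the ubiquitin-editing enzyme A20, showed the same 3 libraries at the top, with 48.9, 32.5 and 25.6 CPM in the zeta libraries, against 39.8, 29.7 and 47.8 CPM in the GFP libraries. Its means were 35.7 ± 11.9 CPM in zeta libraries and 39.1 ± 9.06 CPM in GFP libraries (SD, n = 3 each) and its fold change was -0.13 (95% interval -0.77 to 0.50, SE 0.27).

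Those 3 libraries, zeta 2-1, GFP 1-1 and GFP 3-1, also had the largest share of counts in ribosomal RNA rows, which was 4.44, 2.33 and 0.956% in the zeta libraries and 4.401, 1.35 and 4.66% in the GFP libraries. The share in the mitochondrial genome was 9.19, 5.67 and 2.92% in the zeta libraries and 9.08, 3.37 and 10.7% in the GFP libraries. The part of these shares in the levels of Nfkbia and Tnfaip3 was not tested. Nfkbiz, an atypical IkB that works in the nucleus as a coactivator of genes such as Il6, ranged over 39.4 to 44.8 CPM with the zeta label and 35.3 to 55.9 CPM with the GFP label, with a log2 fold change of 0.012 (SE 0.21). Bcl3, another nuclear IkB protein, ranged over 6.06 to 9.73 CPM with the zeta label and 4.78 to 9.75 CPM with the GFP label, with a log2 fold change of 0.031 (SE 0.33). Neither separated the labels.

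**Figure D3:**
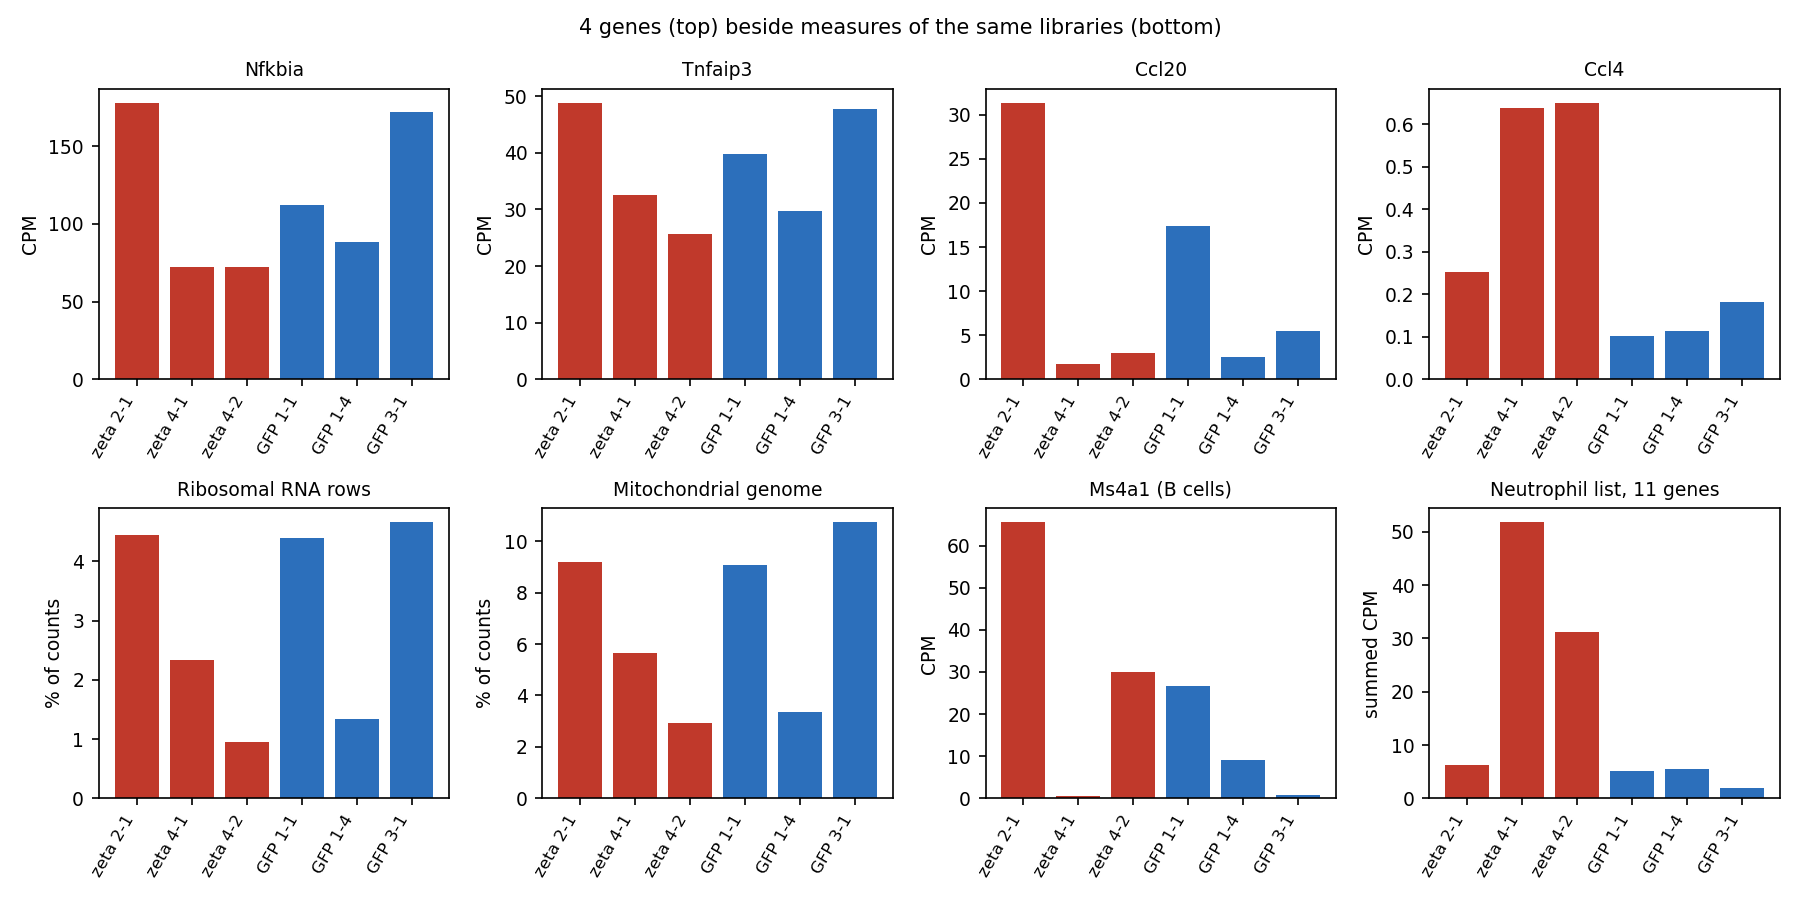
Nfkbia, Tnfaip3, Ccl20 and Ccl4 in CPM (top) beside 4 measures of the same libraries (bottom): the percent of counts in ribosomal RNA rows and in the mitochondrial genome, Ms4a1 in CPM and the summed CPM of 11 neutrophil markers. Bars are single libraries, red for the zeta label and blue for the GFP label. Ms4a1 is 1 of the 8 listed B cell and plasma cell markers, and their sum is not shown. Zeta 2-1, GFP 1-1 and GFP 3-1 are highest for Nfkbia, Tnfaip3 and both percentages, and zeta 4-1 and 4-2 are highest for Ccl4 and the neutrophil sum.

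Among the cytokines, Il1b was the gene whose groups did not overlap. Il1b (Entrez 16176, chromosome 2 from 129364569 to 129371164), the main secreted interleukin-1 of myeloid cells, was at 6.795, 6.86 and 12.5 CPM in the zeta libraries, against 3.13, 5.14 and 6.04 CPM in the GFP libraries. All 3 zeta libraries were above all 3 GFP libraries, though the nearest were close, and zeta replicate 4-2 was highest. The means were 8.71 ± 3.26 CPM in zeta libraries and 4.77 ± 1.49 CPM in GFP libraries (SD, n = 3 each), for a log2 fold change of 0.87 (95% interval 0.062 to 1.68, SE 0.35), with an unadjusted p of 0.0379 and an edgeR adjusted p of 0.877. Without zeta replicate 4-2 the fold change was 0.52 and the unadjusted edgeR p was 0.172. Without GFP replicate 1-1 it was 0.62, with an unadjusted edgeR p of 0.114. Without GFP replicate 3-1 it was 1.07, with an unadjusted edgeR p of 0.0295. Il1a, the sister cytokine that is active without processing, had no such order, with a range of 0.221 to 1.09 CPM with the zeta label and 0.709 to 0.944 CPM with the GFP label and a fold change of -0.21 (SE 0.55).

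Il6 (Entrez 16193, chromosome 5 from 30013114 to 30019975), a cytokine of the acute phase made by stroma and macrophages, was spread widely within both labels. Its level was 4.53, 1.77 and 6.104 CPM in the zeta libraries, against 0.479, 3.33 and 2.31 CPM in the GFP libraries. GFP replicate 1-1 was far below the other libraries, the top library had 12.7 times its level, and the groups overlapped. The log2 fold change was 1.02 (95% interval -0.57 to 2.61, SE 0.69). Tnf (Entrez 21926, chromosome 17 from 35199367 to 35202007), the founding inducer of NF-kB, was scarce at 1.45, 0.443 and 0.718 CPM in the zeta libraries, against 0.920, 1.66 and 0.642 CPM in the GFP libraries, with the groups fully mixed and a fold change of -0.30 (95% interval -1.54 to 0.93, SE 0.54). Il10, the anti-inflammatory cytokine of regulatory T cells and macrophages, was at 0.667, 0.135 and 0.842 CPM in the zeta libraries, against 0.189, 0.251 and 0.133 CPM in the GFP libraries. Zeta 2-1 and 4-2 were high and zeta 4-1 was as low as GFP 3-1, and the log2 fold change was 1.52 (95% interval -0.055 to 3.09, SE 0.68), with an unadjusted p of 0.0567 and an adjusted p of 0.915 in edgeR.

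Il12b, the shared subunit of interleukin-12 and interleukin-23, was at 0.563, 0.0615 and 0.335 CPM in the zeta libraries, against 0.517, 0.229 and 0.0968 CPM in the GFP libraries. It was lowest in zeta 4-1 and GFP 3-1, the libraries in which the B cell gene Ms4a1 was also near 0 (Ms4a1 had 65.6, 0.541 and 29.99 CPM with the zeta label and 26.6, 9.13 and 0.775 CPM with the GFP label). The summed level of the 8 B cell and plasma cell markers was 772, 875 and 1251 CPM with the zeta label and 806, 2132 and 479.7 CPM with the GFP label, with all 8 detected. It is dominated by the joining-chain gene Jchain. The part of such cells in Il12b was not tested. In tissue RNA of this kind, fewer cells of a type and less RNA per cell cannot be told apart.

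Il33 and Il18, which encode cytokines released as alarm signals, had a higher mean CPM than the other cytokine genes of the set, Il1a included. Il33, held in the nucleus of stromal and endothelial cells, was at 12.9, 34.3 and 26.8 CPM with the zeta label and 23.8, 11.5 and 5.19 CPM with the GFP label. Values overlapped, GFP 3-1 was lowest, and the log2 fold change was 0.87 (95% interval -0.42 to 2.16, SE 0.56). Without GFP replicate 1-1 it was 1.55, with an unadjusted edgeR p of 0.0205, and without GFP replicate 3-1 it was 0.48. Il18 (Entrez 16173, chromosome 9 from 50554700 to 50581841), which epithelium makes constitutively and caspase-1 activates, was at 16.8, 21.5 and 22.7 CPM in the zeta libraries, against 34.6, 25.02 and 17.95 CPM in the GFP libraries. GFP replicate 1-1 was highest and zeta replicate 2-1 lowest. The fold change was -0.35 (95% interval -0.95 to 0.26, SE 0.26), or -0.091 without GFP replicate 1-1 and -0.55 without GFP replicate 3-1. Its span overlaps that of Bco2, an enterocyte gene with more reads than Il18 itself, by 515 bases, so part of its count is uncertain.

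The inflammatory chemokines held 4 of the 5 genes whose groups did not overlap. Over the whole set, 5 of 30 genes (16.7%) had non-overlapping groups, all higher in the zeta libraries, against 4.72% of all tested genes in that direction, 5.66% in the other and 10.4% in either. The 5 are Il1b, Cxcl2, Ccl2, Ccl3 and Ccl4, all measured in the same 6 libraries. Ccl3 and Ccl4 passed the filter on low counts only through the zeta libraries, where they were higher. Their place among the 5 was thus partly set by the filter. Cxcl2 (Entrez 20310, chromosome 5 from 90903899 to 90905938), an attractant of neutrophils, was at 1.86, 1.94 and 3.42 CPM in the zeta libraries, against 0.517, 0.914 and 1.73 CPM in the GFP libraries. The lowest zeta library was just above the highest GFP library. The means were 2.41 ± 0.874 CPM in zeta libraries and 1.05 ± 0.619 CPM in GFP libraries (SD, n = 3 each), for a log2 fold change of 1.19 (95% interval 0.072 to 2.31, SE 0.49), with an unadjusted p of 0.0397 and an adjusted p of 0.877 in edgeR. Without zeta replicate 4-2 it was 0.85, with an unadjusted edgeR p of 0.154, and without GFP replicate 1-1 it was 0.84. Without GFP replicate 3-1 it was 1.74, with an unadjusted edgeR p of 0.00741.

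Ccl2 (Entrez 20296, chromosome 11 from 82035577 to 82037452), which draws monocytes through the receptor Ccr2, was at 8.09, 9.04 and 18.8 CPM in the zeta libraries, against 1.02, 7.83 and 5.67 CPM in the GFP libraries. The gap between the groups was again narrow, GFP replicate 1-1 was far below all others, and the range over libraries was 18.4-fold. The means were 11.97 ± 5.91 CPM in zeta libraries and 4.84 ± 3.48 CPM in GFP libraries (SD, n = 3 each), for a log2 fold change of 1.31 (95% interval -0.25 to 2.86, SE 0.67), with an unadjusted p of 0.0884 in edgeR. Without GFP replicate 1-1 the fold change was 0.81 and without zeta replicate 4-2 it was 0.82. Without GFP replicate 1-4 it was 1.84.

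Ccl3 and Ccl4 encode macrophage inflammatory proteins, which attract leukocytes, and both were near the limit of measurement. Ccl4 (Entrez 20303, chromosome 11 from 83648624 to 83664683) had 22, 52 and 68 reads in the zeta libraries, against 8, 10 and 15 reads in the GFP libraries, which is 0.253, 0.639 and 0.651 CPM with the zeta label and 0.101, 0.114 and 0.182 CPM with the GFP label. Zeta 4-1 and 4-2 were well above every GFP library and zeta 2-1 was only slightly above. The means were 0.514 ± 0.226 CPM in zeta libraries and 0.132 ± 0.0433 CPM in GFP libraries (SD, n = 3 each), for a log2 fold change of 1.95 (95% interval 0.67 to 3.23, SE 0.56), with an unadjusted p of 0.00791 and an adjusted p of 0.858 in edgeR. Ccl3 (Entrez 20302, chromosome 11 from 83647843 to 83649378) had 24, 33 and 49 reads in the zeta libraries, against 17, 20 and 6 reads in the GFP libraries, with means of 0.384 ± 0.0983 CPM in zeta libraries and 0.172 ± 0.0862 CPM in GFP libraries (SD, n = 3 each) and a log2 fold change of 1.15 (95% interval -0.15 to 2.46, SE 0.57). The annotated spans of Ccl3 and Ccl4 overlap by 755 bases, so their reads may be divided between them in a way that the counts do not show.

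Marker lists of several myeloid cell types were set beside these genes. The summed level of 11 neutrophil markers was 6.27, 51.8 and 31.1 CPM with the zeta label and 5.21, 5.44 and 1.997 CPM with the GFP label. Mpo and Elane had 0 reads in every library. Of the 11 markers 6 were tested, all with values above 0 (median log2 fold change 3.08). All 6 had an unadjusted edgeR p under 0.05, against 2.41% of all tested genes in that direction, and 4 had non-overlapping groups, against 4.72%. The filter on low counts lets in genes with enough reads in the zeta libraries alone, which was so for Cxcr2. Markers low in both labels were not tested, so these counts were partly set by the filter. In edgeR 0 of the 6 passed an adjusted p of 0.05. The 12 macrophage markers, all detected and all with values above 0 but none with an unadjusted edgeR p under 0.05 or non-overlapping groups, summed to 342, 324 and 391 CPM with the zeta label and 281, 316 and 201 CPM with the GFP label. Neither sum overlapped between the labels, by narrow gaps between the nearest libraries. The 6 mast cell markers, all detected, summed to 22.7, 26.5 and 30.1 CPM with the zeta label and 24.2, 25.6 and 25.4 CPM with the GFP label, which overlapped. The part of these cell types in the levels of Il1b, Cxcl2, Ccl2, Ccl3 and Ccl4 was not tested.

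Cxcl1 (Entrez 14825, chromosome 5 from 90891245 to 90893121), the neighbour of Cxcl2 and likewise a ligand of Cxcr2, did not separate the labels. It was at 5.71, 2.004 and 7.83 CPM in the zeta libraries, against 1.02, 4.21 and 2.74 CPM in the GFP libraries. The means were 5.18 ± 2.95 CPM in zeta libraries and 2.65 ± 1.59 CPM in GFP libraries (SD, n = 3 each), for a log2 fold change of 0.96 (95% interval -0.43 to 2.36, SE 0.61). The order of the 6 libraries was the same for Cxcl1 as for Il6, from zeta 4-2 at the top through zeta 2-1, GFP 1-4, GFP 3-1 and zeta 4-1 to GFP 1-1. For Il1b, Cxcl2 and Ccl4 the order was also shared, from zeta 4-2 through zeta 4-1, zeta 2-1, GFP 3-1 and GFP 1-4 to GFP 1-1. Over the 30 tested genes, the zeta libraries held the highest value 7, 1 and 11 times and the GFP libraries 3, 3 and 5 times. The zeta libraries held the lowest value 2, 7 and 6 times and the GFP libraries 9, 1 and 5 times. Zeta 4-2 was thus most often highest and GFP 1-1 most often lowest, but each label held both. The map of library deviations shows this.

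**Figure D4:**
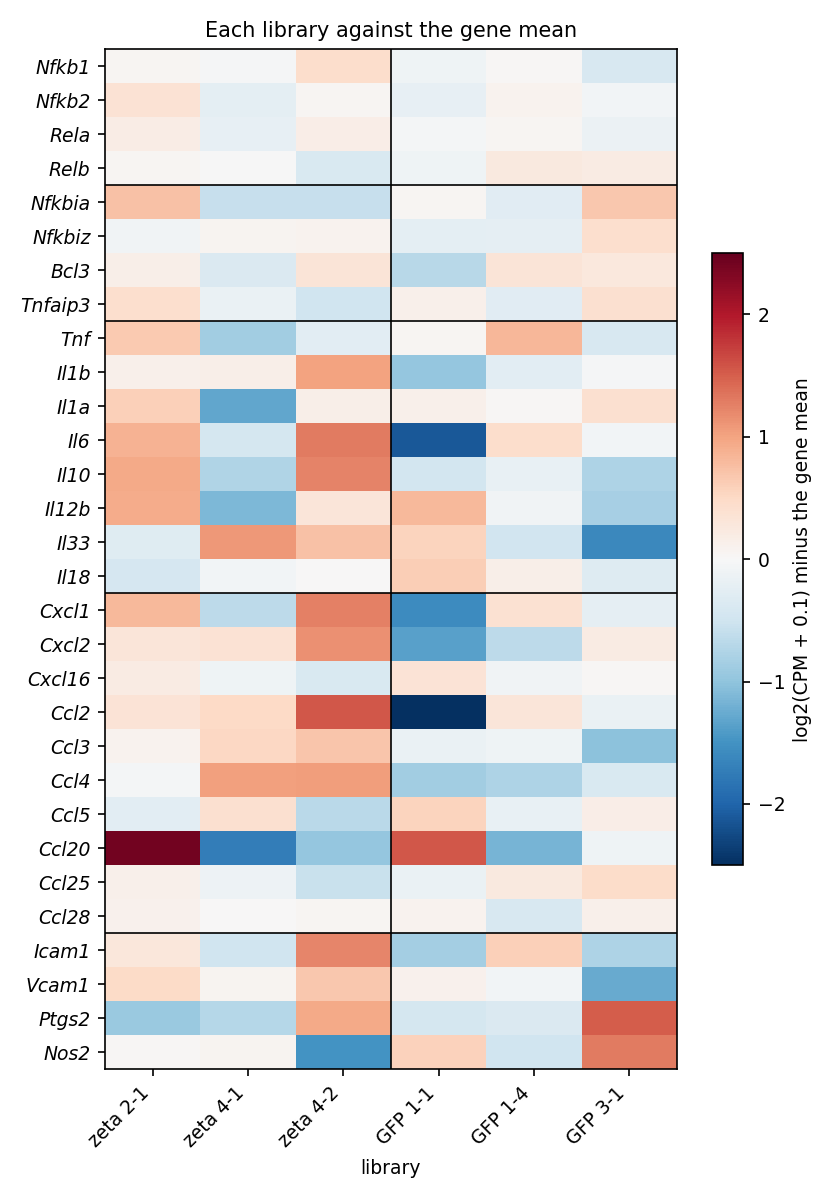
Deviation of each library from the gene's mean over 6 libraries, as log2(CPM + 0.1), for the 30 tested genes by role. Columns are libraries with the zeta label left of the line, red is above and blue below the gene mean, and colours end at 2.5 on either side. GFP 1-1 is blue for Il6, Cxcl1, Cxcl2 and Ccl2 while zeta 4-2 is red for them, and Ccl20 is red only in zeta 2-1 and GFP 1-1.

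Ccl20 (Entrez 20297, chromosome 1 from 83116766 to 83119167), a chemokine of the epithelium over lymphoid follicles that draws cells with the receptor Ccr6, had the widest spread of the 30 genes at 18.6-fold. It was at 31.4, 1.68 and 2.95 CPM in the zeta libraries, against 17.4, 2.55 and 5.42 CPM in the GFP libraries. Zeta 2-1 and GFP 1-1 were far above the others, so each label held both high and low libraries. The log2 fold change was 0.51 (95% interval -2.33 to 3.34, SE 1.19), and without zeta replicate 2-1 it was -1.91, with an unadjusted p of 0.0485 in edgeR. Cxcl13 and Ms4a1, genes of B cell follicles, were also high in zeta 2-1 and GFP 1-1, with Cxcl13 at 58.4, 5.36 and 16.9 CPM with the zeta label and 25.3, 8.99 and 1.31 CPM with the GFP label. Ms4a1 was also high in zeta 4-2, where Ccl20 was low. Cxcl13 and Ms4a1 were picked from longer lists. The sum of the 8 B cell and plasma cell markers, dominated by Jchain, ran otherwise. It was 772, 875 and 1251 CPM with the zeta label and 806, 2132 and 479.7 CPM with the GFP label. The part of follicles in Ccl20 was not tested.

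The epithelial chemokines of the resting gut were steadier. Ccl25 (Entrez 20300, chromosome 8 from 4325205 to 4360020) was at 461, 384 and 287 CPM in the zeta libraries, against 376, 499.99 and 582 CPM in the GFP libraries. Zeta 4-2 was lowest and GFP 3-1 highest, the groups overlapped, and the log2 fold change was -0.36 (95% interval -0.91 to 0.18, SE 0.24). Of the 10 epithelial markers, 8 had lower values in the zeta libraries (median log2 fold change -0.38), and their summed level was 18375, 21043 and 15956 CPM with the zeta label and 28038, 29187 and 24989 CPM with the GFP label. The epithelial sums did not overlap between the labels, and their part in Ccl25 was not tested. Ccl28 (Entrez 56838, chromosome 13 from 119623819 to 119654359), a mucosal attractant of plasma cells, was at 54.7, 51.3 and 52.7 CPM in the zeta libraries, against 54.1, 38.6 and 55.4 CPM in the GFP libraries. Apart from GFP 1-4 its libraries lay close together, and the fold change was 0.099 (95% interval -0.31 to 0.51, SE 0.18).

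Cxcl16 (Entrez 66102, chromosome 11 from 70454389 to 70459984), a membrane-bound ligand of Cxcr6 on lymphocytes, was at 39.1, 31.6 and 25.9 CPM in the zeta libraries, against 42.7, 31.8 and 34.5 CPM in the GFP libraries, with mixed labels and a log2 fold change of -0.17 (95% interval -0.65 to 0.30, SE 0.20). Ccl5 (Entrez 20304, chromosome 11 from 83525778 to 83530518), the T cell chemokine RANTES, was at 1.29, 2.103 and 0.947 CPM in the zeta libraries, against 2.34, 1.36 and 1.78 CPM in the GFP libraries. The labels were mixed, with GFP 1-1 highest and zeta 4-2 lowest. The fold change was -0.34 (95% interval -1.23 to 0.56, SE 0.39), or -0.099 without zeta replicate 4-2 and -0.71 without zeta replicate 4-1. The 10 T cell markers, all detected, summed to 43.98, 20.2 and 25.6 CPM with the zeta label and 28.4, 17.8 and 17.2 CPM with the GFP label. Zeta 2-1, the highest in that sum, was below all but zeta 4-2 in Ccl5, and 9 of the 10 markers had values above 0. The part of T cells in Ccl5 was not tested.

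Of the adhesion molecules that let leukocytes leave vessels, Icam1 (Entrez 15894, chromosome 9 from 21015940 to 21028814) was at 29.7, 17.3 and 56.3 CPM in the zeta libraries, against 13.5, 36.8 and 14.2 CPM in the GFP libraries. Zeta 4-2 and GFP 1-4 were the highest, so the groups were mixed, and the log2 fold change was 0.68 (95% interval -0.53 to 1.89, SE 0.52). Without zeta replicate 4-2 it was 0.13, and without GFP replicate 1-4 it was 1.32, with an unadjusted edgeR p of 0.0294. Vcam1 (Entrez 22329, chromosome 3 from 116110020 to 116129688) was at 31.8, 24.003 and 36.7 CPM in the zeta libraries, against 24.8, 21.8 and 9.51 CPM in the GFP libraries. GFP replicate 3-1 was far below the rest, zeta 4-1 was just under GFP 1-1, and the log2 fold change was 0.72 (95% interval -0.089 to 1.53, SE 0.35), with an unadjusted p of 0.0741 in edgeR. The 7 endothelial markers, all detected, summed to 64.3, 52.999 and 80.1 CPM with the zeta label and 64.9, 67.6 and 55.6 CPM with the GFP label, which overlapped between the labels.

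The enzymes had their highest values in a GFP library. Nos2 (Entrez 18126, chromosome 11 from 78920787 to 78960226), the inducible nitric oxide synthase, was at 58.8, 60.5 and 20.5 CPM in the zeta libraries, against 86.4, 40.8 and 142 CPM in the GFP libraries. GFP 3-1 was highest and zeta 4-2 lowest, with the groups overlapping. The means were 46.6 ± 22.6 CPM in zeta libraries and 89.7 ± 50.6 CPM in GFP libraries (SD, n = 3 each) and the fold change was -0.94 (95% interval -2.19 to 0.30, SE 0.53), the lowest of the 30. Without GFP replicate 3-1 it was -0.44, and without GFP replicate 1-4 it was -1.29. Ptgs2, the inducible cyclooxygenase COX-2, was at 5.22, 6.09 and 19.4 CPM with the zeta label and 7.36, 7.85 and 29.04 CPM with the GFP label. It was high in 1 library of each label, zeta 4-2 and GFP 3-1, and the log2 fold change was -0.53 (95% interval -2.15 to 1.10, SE 0.69), or 0.42 without GFP replicate 3-1.

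The remaining genes of the pathway gave 0 calls at an adjusted p of 0.05 in edgeR in every list, and their medians are plotted by list. Over all tested genes, 54.3% had values above 0, and 2.41% were higher and 3.07% lower at an unadjusted edgeR p under 0.05. In the chain from receptors to NF-kB (kinases, adaptors and ubiquitin enzymes), 19 of 35 tested genes had values above 0 and 16 below (median log2 fold change 0.017). At an unadjusted p under 0.05, 2 genes were higher and 1 was lower. Irak3, which restrains Toll-like receptor signalling, had 0.81 (SE 0.34) and the adaptor gene Traf5 had 1.11 (SE 0.46). Tnip1, a partner of A20, was at 62.5, 48.01 and 46.6 CPM with the zeta label and 69.1, 80.7 and 74.1 CPM with the GFP label, a fold change of -0.51 (SE 0.17) with non-overlapping groups. On this list groups did not overlap for 4 genes higher and 1 lower in the zeta libraries, against 4.72% and 5.66% of all tested genes. The kinase subunits that release NF-kB were level, with Ikbkb at 0.11, Ikbkg at 0.10 and Chuk at 0.017. These 3 were named after their values were seen. Of the Rel and IkB genes, 7 of which are described above, 10 of 13 tested genes had values above 0 and 3 below (median log2 fold change 0.11), with none under an unadjusted p of 0.05.

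Receptors for cytokines included genes of the interleukin-1 system. Of this list 14 of 20 tested genes had values above 0 and 6 below (median log2 fold change 0.28), with 3 higher and 1 lower at an unadjusted edgeR p under 0.05. The shares over all tested genes were 54.3% above 0, 2.41% higher and 3.07% lower. Il1r1, the signalling receptor for the products of Il1a and Il1b, was at 21.1, 35.4 and 26.8 CPM in the zeta libraries, against 17.6, 9.46 and 9.38 CPM in the GFP libraries. The antagonist gene Il1rn was at 5.42, 5.19 and 11.9 CPM in the zeta libraries, against 2.72, 1.85 and 1.65 CPM in the GFP libraries. Both had non-overlapping groups, with fold changes of 1.19 (SE 0.31) and 1.86 (SE 0.40), and both had an edgeR adjusted p of 0.858. The receptor gene Tnfrsf1a for tumour necrosis factor had -0.44 (SE 0.18).

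Among chemokine receptors 9 of 12 tested genes had values above 0 and 3 below (median log2 fold change 0.82), with 5 higher and 0 lower at an unadjusted p under 0.05 in edgeR. For all tested genes these shares were 54.3% above 0, 2.41% higher and 3.07% lower. Groups did not overlap for 2 receptor genes higher and 1 lower in the zeta libraries, against 4.72% and 5.66% of all tested genes. Ccr2, the receptor for the Ccl2 product, was at 5.55, 20.1 and 13.9 CPM in the zeta libraries, against 6.001, 2.903 and 1.82 CPM in the GFP libraries, with a log2 fold change of 1.88 (SE 0.57). The groups overlapped because zeta 2-1 was below GFP 1-1. Cxcr2, the receptor for the Cxcl1 and Cxcl2 products and also on the neutrophil list, had 46, 584 and 206 reads in the zeta libraries, against 20, 39 and 0 reads in the GFP libraries and a fold change of 3.78 (SE 1.30). Cxcr2 passed the filter on low counts only through the zeta libraries. Some other receptors of the chemokines above are given although they were picked after their values were seen. Ccr6, for Ccl20, had 1.64 (SE 1.45). Ccr9, for Ccl25, had 0.24 (SE 0.32), Ccr10, for Ccl28, had -0.70 (SE 0.60), and Cxcr6, for Cxcl16, had 0.56 (SE 0.31). The neutrophil and macrophage sums given above also differed between the labels, and their part in these receptors was not tested.

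Of the microbial sensors 11 of 18 tested genes had values above 0 and 7 below (median log2 fold change 0.071), with 2 higher and 1 lower at an unadjusted edgeR p under 0.05. For this list and the others in this paragraph, the shares over all tested genes were 54.3% above 0, 2.41% higher and 3.07% lower. The Toll-like receptor genes Tlr6 and Tlr4 had 1.01 (SE 0.36) and 0.73 (SE 0.31). Gsdmd, the pore former that releases interleukin-1, was at 221, 210.2 and 119.8 CPM in the zeta libraries, against 400.4, 317 and 259 CPM in the GFP libraries and had -0.83 (SE 0.27). Of the other chemokines 15 of 19 tested genes had values above 0 and 4 below (median log2 fold change 0.55), with 4 higher and 1 lower at that threshold in edgeR. Cxcl5, made by epithelium and stroma, was at 1.69, 9.74 and 9.28 CPM with the zeta label and 0.630, 1.897 and 0.690 CPM with the GFP label, and Ccl9 had 0.55 (SE 0.18). Cx3cl1, which epithelium and endothelium display to resident macrophages, was at 68.3, 53.4 and 48.8 CPM with the zeta label and 74.7, 91.5 and 107 CPM with the GFP label, with -0.68 (SE 0.20) and non-overlapping groups. Among these other chemokines groups did not overlap for 1 gene higher and 1 lower in the zeta libraries. Of the other NF-kB targets 23 of 31 tested genes had values above 0 and 8 below (median log2 fold change 0.39), with 5 higher and 2 lower. Saa3 and Il22 had 3.20 (SE 0.77) and 4.02 (SE 1.11). The epithelial oxidase gene Duox2 and Duoxa2, the gene of its maturation factor, had -0.96 (SE 0.31) and -1.10 (SE 0.41). The summed epithelial markers were lower too in the zeta libraries, and their part in Gsdmd, Cx3cl1, Duox2 and Duoxa2 was not tested.

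**Figure D5:**
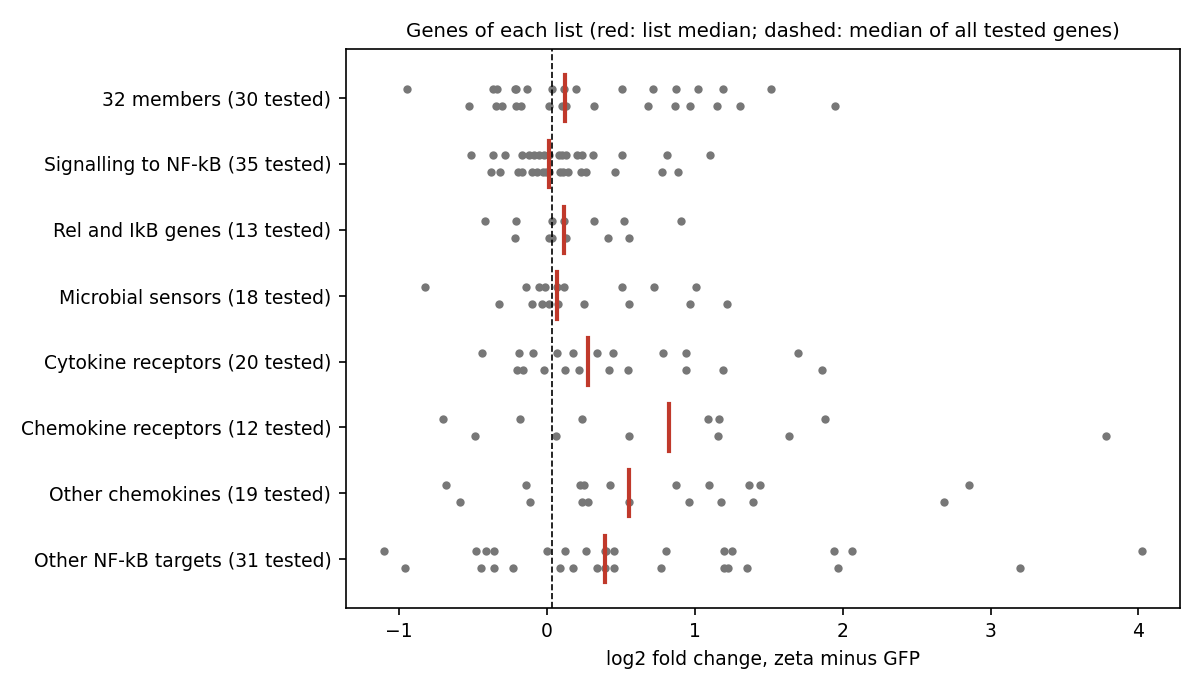
Log2 fold changes, zeta minus GFP, of the tested genes in the set and in 7 lists of the same pathway. Points are genes, red bars are list medians and the dashed line is the median of all tested genes at 0.035. Signalling genes cluster around the line, while chemokine receptors and other chemokines spread to the right of it (medians 0.82 and 0.55).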

How the data were processed

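RNA was column-purified and depleted of ribosomal RNA, and libraries kept the strand, per the labels' protocols. FastQC, Trimmomatic, HISAT2, StringTie and build mm10 are named in the submitters' processing notes, without versions. The sources used here do not name the counting program. The authors deposited read counts per gene as whole numbers. Per the file headers, FPKM and TPM values stand beside them, and the deposited FPKM values were not used. The deposited TPM values served for levels between genes and for an alternative test.

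The test on counts was that of edgeR 4.0.16 in R 4.3.3 (filterByExpr, TMM scaling, robust quasi-likelihood F test, two-sided), fitted on 18456 genes with Benjamini-Hochberg adjustment over all of them. Log2 fold changes are zeta minus GFP. No 2 libraries held identical values. Floors of 3 counts cover counting error only. The labels do not say that libraries are separate animals, so p-values measure the spread between these samples. Alternatives used DESeq2 1.42.0, limma 3.58.1, other scalings and filters, protein-coding rows, and each library left out. Positions count from 1 and come from RefSeq (GRCm38.p6, the assembly mm10 names), where 45679 of 45777 gene IDs matched.

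The 32 genes and the lists were chosen with earlier results of these data known. Described in full are genes with an unadjusted p under 0.05 or non-overlapping groups and 17 set by name, and up to 2 genes per direction of each pathway list with an unadjusted p under 0.05. A listed gene is not reported here.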

Additional observations from a re-analysis of the deposited data

How the results depend on the processing

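Under all 15 alternatives 0 of the 32 genes passed an adjusted p of 0.05, and their lowest adjusted p was 0.316 (Ccl4 in DESeq2). Over all genes, DESeq2 called 87 (48 higher, 39 lower) and gave 9617 genes no adjusted p, and the other 14 called 0. A total of 16 of the 30 tested genes kept their direction in every alternative, Il1b, Il6, Il10, Cxcl1, Cxcl2, Ccl2, Ccl3, Ccl4 and Nos2 among them. The filter at a mean of 1 CPM left 24 genes and gave no value for Tnf, Il1a, Il10, Il12b, Ccl3 and Ccl4.

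Turns of direction, in log2 fold change, were these. With log2(TPM + 1) and log2(TPM + 0.1), Relb had 0.0040 and 0.0043, Tnfaip3 0.064 and 0.070, and Cxcl16 0.034 and 0.035. The median of all tested genes moved there to 0.14 and 0.23, so these lay below it, and the tested members' median lay 0.14 and 0.077 above it, against 0.086 by edgeR. It lay below that of all genes in limma voom (difference -0.037) and without zeta replicate 2-1 (-0.023). Nfkbiz had -0.013 with DESeq2's size factors, -0.012 in DESeq2 and -0.068 in limma voom, where Bcl3 had -0.015, Il12b -0.045 and Ccl20 -0.67. Leaving out each library in turn gave -0.25 to 0.20 for Bcl3, -1.91 to 1.58 for Ccl20, -0.051 to 0.19 for Ccl28 and -0.55 to 0.96 for Il12b. It gave -0.76 to 0.21 for Il1a, -0.083 to 0.26 for Nfkb2, -0.83 to 0.11 for Nfkbia and -0.12 to 0.27 for Nfkbiz. Ptgs2 had -1.39 to 0.42, Rela -0.0037 to 0.23, Tnf -0.93 to 0.16 and Tnfaip3 -0.46 to 0.059. The count of genes with values above 0 ran from 14 to 21 and the median from -0.038 to 0.25, both lowest without zeta replicate 2-1. The count was highest without zeta replicate 4-1 or GFP replicate 3-1, and the median without zeta replicate 4-1. In limma voom the median was 0.0040. Apart from the libraries left out, the cause of these turns was not tested. No paired analysis was possible because the titles give the groups no replicate number in common.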

Other observations

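Cxcl10 and Csf3, genes outside the set, were picked after their values were seen. Cxcl10, an interferon-induced chemokine, was at 5.02, 1.402 and 10.8 CPM with the zeta label and 1.15, 4.16 and 2.75 CPM with the GFP label, with the same order of 6 libraries as Il6 and Cxcl1. Csf3, the granulocyte growth factor that stroma makes under interleukin-1, was at 2.61, 1.34 and 3.03 CPM with the zeta label and 0.0504, 1.95 and 0.726 CPM with the GFP label, with GFP 1-1 again far below the others. Its order differed from that of Il6 in that zeta 4-1 was above GFP 3-1. Neither separated the labels, with log2 fold changes of 1.10 (SE 0.72) and 1.35 (SE 0.93) and an edgeR adjusted p of 0.917 for both.

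The epithelial oxidase gene Duox2 and its partner Duoxa2, like Nos2, had their lowest value in a zeta library. Duox2 was at 129, 100.5 and 193 CPM with the zeta label and 359, 185 and 276 CPM with the GFP label, and its maturation factor Duoxa2 at 43.6, 20.7 and 77.8 CPM with the zeta label and 99.02, 104 and 102 CPM with the GFP label. Zeta 4-1 was lowest for both, whereas Nos2 was lowest in zeta 4-2.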
